A study of Arabidopsis thaliana with 4 samples.

Results

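Beta-glucosidases of glycoside hydrolase family 1 remove a glucose unit from small molecules. In plants they release defence compounds, hormones and lignin building blocks from glucose conjugates that are stored in an inactive form. The myrosinases are a branch of the family that act on glucosinolates, the sulphur-rich defence compounds of the cabbage order. The genes described here are those of Arabidopsis thaliana whose reference symbol is BGLU followed by a number and that had an array probe naming them alone, measured on at least 3 of 4 arrays. They were BGLU36, BGLU24, BGLU25, BGLU33, BGLU42, BGLU47 and BGLU16. Of 40 genes with such a symbol, these 7 met the rule, 12 were listed only by probes naming several genes, and 21 were listed by no probe of the platform annotation. The 7 genes are among 25588 genes and unnamed probes tested. ATA27, an anther beta-glucosidase that carries BGLU20 as a synonym, was left out of the 7.

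The study set total RNA of apetala3 inflorescences against total RNA of wild-type inflorescences on each of 4 oligonucleotide arrays with a channel for each RNA. APETALA3 is a MADS-box factor that specifies petals and stamens, and flowers lacking it form sepals and carpels in their place. The mutant RNA was in channel 1 on arrays 1 and 3 and in channel 2 on arrays 2 and 4. The labels and files used here do not state the mutant allele, the accession, the age of the plants or whether the arrays came from separate plants. The p-values thus rest on array-to-array spread alone, which can be technical, and precision is limited by having 4 arrays.

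Values below are log2 ratios with apetala3 as the numerator and wild type as the denominator, so negative values are lower in the mutant. The labels do not name the numerator of the deposited ratios. As deposited, arrays of the same channel order correlated at a Pearson r of 0.80 and 0.68 across probes, and arrays of opposite order at -0.62 to -0.82. The direction is called likely from genes of the tapetum, which surrounds and feeds developing pollen in the anther, because the mutant lacks stamens. The 6 measured genes of that list had a median of -2.93, and a median of -2.76 without ATA27. With the sign turned, every higher would read lower. Each gene was tested with limma over all features, and a Benjamini-Hochberg adjusted p under 0.05 counts as changed. Errors marked SE are limma's.

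BGLU36 and BGLU24 were lower in apetala3, and none of the 7 genes was higher. The other 5 did not pass the test, with mean log2 ratios between -0.041 and 0.29. At an unadjusted limma p under 0.05 the count was the same 2 lower and 0 higher. Of all features, 18.5% passed the test, 8.43% as higher and 10.1% as lower. Other settings changed the split of all features, from 2158 higher and 2579 lower to 1065 and 2905 after centring on array medians, and to 3751 and 3056 with array weights. The median of the 7 genes was -0.0089, beside 0.115 for all features, and the median absolute value was 0.28 beside 0.25. The count of 2 rests on BGLU24, which lost its call without any 1 of the 4 arrays, so that 1 gene was then called.

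**Figure D1:**
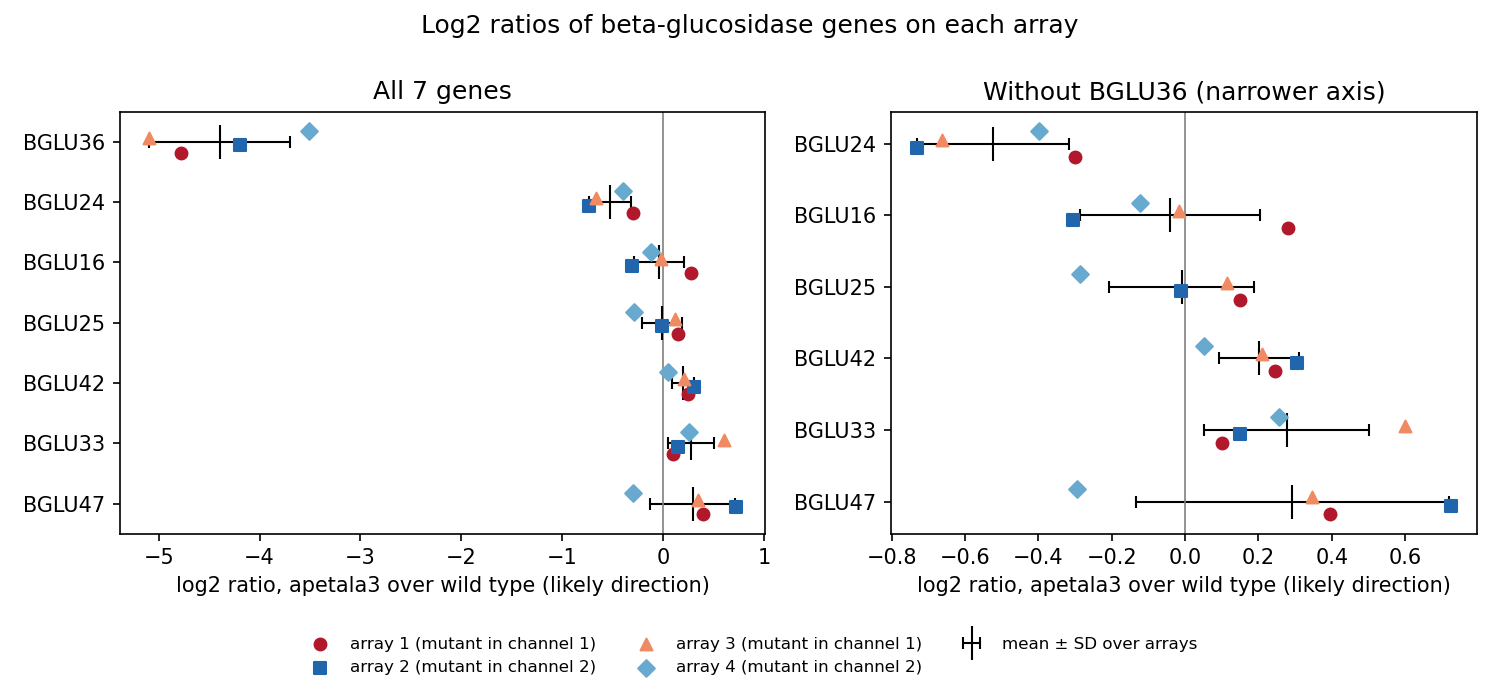
Log2 ratio of apetala3 over wild type (x axis) for each of the 7 beta-glucosidase genes (y axis), with 1 point per array and the mean ± SD over 4 arrays, shown for all genes at left and without BGLU36 on a narrower axis at right. BGLU36 lies between -5.10 and -3.51 on the arrays, while every value of the other 6 genes lies between -0.73 and 0.72.

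BGLU36 (AT1G51490) has been grouped by sequence with the myrosinases. Its log2 ratios were -4.78, -4.20, -5.10 and -3.51 on arrays 1 to 4. All 4 arrays were far below 0, from 11.4-fold to 34.2-fold lower in apetala3, and no other of the 7 genes overlapped that range. The mean was -4.40 ± 0.27 (SE, n = 4 arrays, limma adjusted p = 0.000753), or 21.1-fold lower, with a 95% interval of 13.2-fold to 33.6-fold. The SD over arrays was 0.70, above the median SD of 0.26 over all features but small beside the mean. BGLU36 had the 13th lowest mean of 5303 named genes, and 0.348% of all features lay below it. Leaving out 1 array in turn gave means from -4.69 to -4.16, all past the threshold. The arrays compare whole inflorescences, so fewer cells of a type and less RNA per cell cannot be told apart.

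Markers of floral tissues are given beside BGLU36. The tapetum list set the likely direction of all ratios, so its genes being lower is not a separate result. Of 49 loci matched by symbol to the tapetum and pollen wall list, 6 had a measured probe of their own. Of these 6, 5 were lower, beside 10.1% of all features, and the means ran from -4.10 to 0.072. The sugar transporter SWEET8, which pollen wall formation requires, had -3.97. SHT, a tapetal spermidine conjugate enzyme, was at -3.11, a call lost without array 2 (-3.01, limma adjusted p = 0.0566), and the anther gene ATA20 was at -2.76. SPL, which starts sporogenesis, was at -0.49, a call lost without array 1, 2 or 3 (means of -0.43, -0.53 and -0.46). The fifth is ATA27, described further on, and the receptor kinase EMS1, at 0.072, did not pass the test. On the pollen list, 2 of 39 loci were measured. The pollen alpha-tubulin TUA1 was at -0.44, a call lost without array 1, 2 or 3 (means of -0.44, -0.43 and -0.39), and TUA6 at -0.13 did not pass the test. On the petal and nectary list, 1 of 13 loci was measured, the nectary sucrose transporter SWEET9, which was lower at -4.79. On the carpel and ovule list, 2 of 31 loci were measured. CES, a bHLH factor of the transmitting tract, was higher at 1.85 and INO, a YABBY factor needed for ovule integument growth, had 0.20 without passing the test. The part of these tissues in the value of BGLU36 was not tested.

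The named genes whose pattern over the 4 arrays lay nearest to BGLU36 were AT3G51070, AT1G15415 and AT5G07600. Likeness was measured as the Euclidean distance of log2 ratios over 4 arrays among 5144 named genes measured on all of them. The distances were 0.30, 0.31 and 0.33. AT3G51070 had log2 ratios of -4.86, -3.94, -5.04 and -3.39 on arrays 1 to 4. Like BGLU36, it was lowest on array 3 and least low on array 4, but it was picked for closeness on these same values. The pollen tubulin TUA1 had this order too. So did GH9A4, GH9B11, UGT84A1 and the probe listing BGLU40 and BGLU41, all described further on. SWEET8, SWEET9 and ATA20 were lowest on array 1 but also least low on array 4. SHT was lowest on array 3 but least low on array 1. AT1G15415 and AT5G07600 had means of -4.46 and -4.32.

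BGLU24 (AT5G28510) and BGLU25 (AT3G03640) are grouped by sequence with PYK10, the main beta-glucosidase of the endoplasmic reticulum bodies of roots and seedlings. BGLU24 had log2 ratios of -0.30, -0.73, -0.66 and -0.40 on arrays 1 to 4. All 4 arrays were below 0, and the 2 channel orders did not separate. Its mean was -0.52 ± 0.11 (SE, n = 4 arrays, limma adjusted p = 0.0337), or 1.44-fold lower with a 95% interval of 1.18-fold to 1.75-fold. Without arrays 1 to 4 in turn the means were -0.60, -0.45, -0.48 and -0.57, with limma adjusted p of 0.0892, 0.123, 0.103 and 0.0524. With a term for the channel added to the model, BGLU24 did not pass (limma adjusted p = 0.0576). A further probe lists BGLU24 together with PYK10 and AT5G48175. Its log2 ratios were -0.37, -0.37, -0.15 and -0.37, again below 0 on every array. That probe had a mean of -0.31 ± 0.095 (SE, n = 4 arrays, limma adjusted p = 0.0739). It passed with arrays centred (-0.42, limma adjusted p = 0.0405) and with array weights (-0.32, limma adjusted p = 0.0475).

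BGLU25 had log2 ratios of 0.15, -0.012, 0.11 and -0.29 on arrays 1 to 4. The 2 arrays with the mutant in channel 1 were above 0 and the 2 with it in channel 2 were below 0. The deposited ratios, before the sign was turned, were below 0 on all 4 arrays. The mean was -0.0089, with a 95% interval of -0.29 to 0.27 (limma adjusted p = 0.962). That interval leaves room for a change of up to 1.22-fold lower or 1.21-fold higher.

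The genes nearest to BGLU24 by the same distance were AT3G43570, AT5G26731 and AT1G18270, at 0.24, 0.26 and 0.27. Their means were -0.59, -0.60 and -0.60. Each was below 0 on all 4 arrays.

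BGLU33 (AT2G32860) has been described as a vacuolar enzyme that frees the hormone abscisic acid from its glucose ester. Its log2 ratios were 0.10, 0.15, 0.60 and 0.26 on arrays 1 to 4. All were above 0, with array 3 the highest. The mean was 0.28 ± 0.12 (SE, n = 4 arrays, limma adjusted p = 0.158), with a 95% interval of -0.021 to 0.58. It did not pass the test. Centring each array on its median lowers values by 0.075 to 0.12, and BGLU33 was then at 0.18.

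UGT71C5, which joins abscisic acid to glucose, had a mean of -0.21 ± 0.10 (SE, n = 4 arrays, limma adjusted p = 0.197). It is named here for its role, after its values were seen. It did not pass the test either.

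BGLU42 (AT5G36890) acts in roots, where it takes part in the release of coumarins and in the systemic resistance that beneficial rhizobacteria induce. In the inflorescences its log2 ratios were 0.24, 0.31, 0.21 and 0.051 on arrays 1 to 4. All were above 0 and close together, with an SD of 0.11, the lowest among the 7 genes. The mean was 0.20 ± 0.095 (SE, n = 4 arrays, limma adjusted p = 0.186), with a 95% interval of -0.035 to 0.44. After centring on the array medians it was at 0.10.

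BGLU47 (AT4G21760) is grouped by sequence with BGLU45 and BGLU46, which act on glucosides of monolignols, the building blocks of lignin. Its log2 ratios were 0.39, 0.72, 0.35 and -0.29 on arrays 1 to 4. Array 4 was below 0 and the other 3 were above it. The mean of 0.29 ± 0.18 (SE, n = 4 arrays, limma adjusted p = 0.283) did not pass the test. Its SD of 0.43 was larger than the mean. Without array 4 the mean was 0.49 (limma adjusted p = 0.0647), and without array 2 it was 0.15.

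BGLU16 (AT3G60130) lies between 2 other family genes, BGLU27 and DIN2, in the gene order of assembly TAIR10.1. Neither of these was named alone by a measured probe. BGLU16 was the only one of the 7 genes with 2 probes. Averaged, its log2 ratios were 0.28, -0.31, -0.016 and -0.12 on arrays 1 to 4. The mean was -0.041 (SD 0.25, limma adjusted p = 0.835). The 2 probes disagreed in sign. The first had 0.53, 0.058, 0.19 and 0.19 on arrays 1 to 4, with a mean of 0.24, and the second had 0.029, -0.67, -0.22 and -0.44, with a mean of -0.32. The first lay above the second on every array, but neither passed the test on its own (limma adjusted p = 0.186 and 0.158).

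In order of their means the 7 genes ran BGLU36, BGLU24, BGLU16, BGLU25, BGLU42, BGLU33 and BGLU47. BGLU36 was lower than BGLU24 by a mean difference of 3.87 (SD 0.69) on 4 of 4 arrays, with no overlap of their ranges. BGLU24 was below BGLU16 on 4 of 4 arrays by 0.48 (SD 0.17), although their ranges overlapped. This order rests on the average of the 2 BGLU16 probes. On array 4 the second of them, at -0.44, lay below BGLU24, at -0.40. BGLU25 was below BGLU42 on 4 of 4 arrays by 0.21 (SD 0.13), and their ranges overlapped too. The remaining neighbours did not differ beyond their spread. BGLU16 and BGLU25 differed by 0.032 (SD 0.22), BGLU42 and BGLU33 by 0.075 (SD 0.27) and BGLU33 and BGLU47 by 0.016 (SD 0.51). With 4 arrays the smallest two-sided p of an exact sign-flip test is 0.125, so these differences were not tested.

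The 2 channel orders were compared for each gene. BGLU36 had a mean of -4.94 with the mutant in channel 1 and -3.86 with it in channel 2. Both were far below 0, but they differed by -1.08 (limma unadjusted p = 0.0204, adjusted p = 0.705). BGLU24 had -0.48 and -0.56. The other 5 genes differed between the orders by 0.049 to 0.35. No feature passed the adjusted test of this difference in limma, and 1735 (6.78%) had an unadjusted p under 0.05, BGLU36 among them. With 2 arrays on each side, the smallest adjusted p that limma gave was 0.645.

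**Figure D2:**
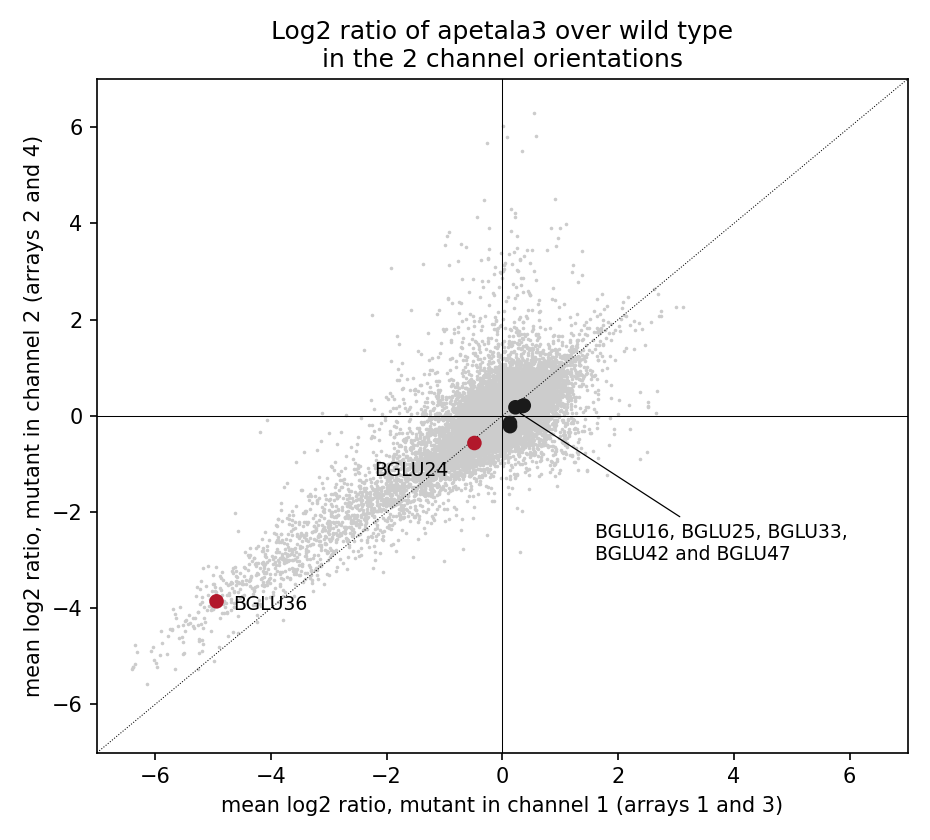
Mean log2 ratio of apetala3 over wild type with the mutant in channel 1 (x axis, arrays 1 and 3) against that with the mutant in channel 2 (y axis, arrays 2 and 4), for the features tested (grey) and the 7 beta-glucosidase genes (red where past the threshold, black otherwise). BGLU36 is at -4.94 and -3.86, BGLU24 at -0.48 and -0.56, and the other 5 lie close to the origin.

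Further family genes were listed by probes that name several genes. Such a probe cannot be assigned to 1 of them, and the annotation does not say which transcripts it detects. There were 15 such probes listing only family members, standing for 9 sets of genes and 15 genes in all. Of these probes 2 were lower, 1 was higher and 12 did not pass the test, beside 10.1% lower and 8.43% higher over all features. Their median was 0.052. Probes with the same genes are not independent.

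The probe listing BGLU40 and BGLU41 was the lowest, with log2 ratios of -2.41, -2.54, -3.11 and -2.28 on arrays 1 to 4. All 4 arrays were well below 0. The mean was -2.59 ± 0.16 (SE, n = 4 arrays, limma adjusted p = 0.000757), or 6.0-fold lower, and it passed under all alternatives run. The probe listing BGLU40, BGLU41 and BGLU42 did not share this value. It had 0.17, 0.27, 0.032 and 0.20 on arrays 1 to 4, above 0 throughout and near the mean of 0.20 of BGLU42 alone. Its mean of 0.17 did not pass the test (limma adjusted p = 0.244).

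Both probes listing BGLU31 and BGLU32 were measured, with unlike values. The second had -0.43, -0.997, -1.60 and -0.95 on arrays 1 to 4 and a mean of -0.99 ± 0.19 (SE, n = 4 arrays, limma adjusted p = 0.0245). This call was lost without array 2 (-0.99, limma adjusted p = 0.0956) and without array 4 (-1.01, limma adjusted p = 0.0532), and with the ordinary t statistic (adjusted p = 0.117). The first had 1.06, 4.13 and -0.62 on arrays 1 to 3 and was at the 100-fold limit of the deposited values on array 4, where it was taken as not measured. Its arrays did not share a sign, and its mean of 1.52 had an SD of 2.41. Without array 2 the mean was 0.22, without array 3 it was 2.59, and with the limit value kept it was 2.80.

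BGLU43 and BGLU44 shared 3 probes, each above 0 on all 4 arrays. BGLU44 is known as a beta-mannosidase as well as a glucosidase. The second probe had 1.08, 0.88, 0.48 and 0.58 on arrays 1 to 4 and was higher, at 0.76 ± 0.13 (SE, n = 4 arrays, limma adjusted p = 0.0181). This call was lost without array 1 (0.65, limma adjusted p = 0.0838) and without array 2 (0.71, limma adjusted p = 0.0815), and with the ordinary t statistic (adjusted p = 0.0864). The other 2 probes, at 0.36 and 0.32, did not pass the test.

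BGLU21 and BGLU22, close relatives of PYK10 that act on the coumarin glucoside scopolin in roots, shared 2 probes at -0.62 and -0.76. The first ranged from -1.51 to 0.020 over the arrays and the second from -1.47 to -0.28. Neither passed the test (limma adjusted p = 0.170 and 0.0573), but the second did with arrays centred, with a constant channel effect and with array weights. A probe listing both with PYK10 was at 0.34. BGLU45 and BGLU46 had probes at -0.46 and 0.16, and a probe that adds BGLU47 was at -0.31. Array 2 was the lowest array of that probe and of the probe at -0.46, at -1.52 and -1.31. BGLU28 and BGLU29 had probes at 0.0016 and 0.052. The second was at the 100-fold limit on array 2 and so rests on 3 arrays, and with that value kept it was at 1.70 (limma adjusted p = 0.409). None of these passed the test.

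**Figure D3:**
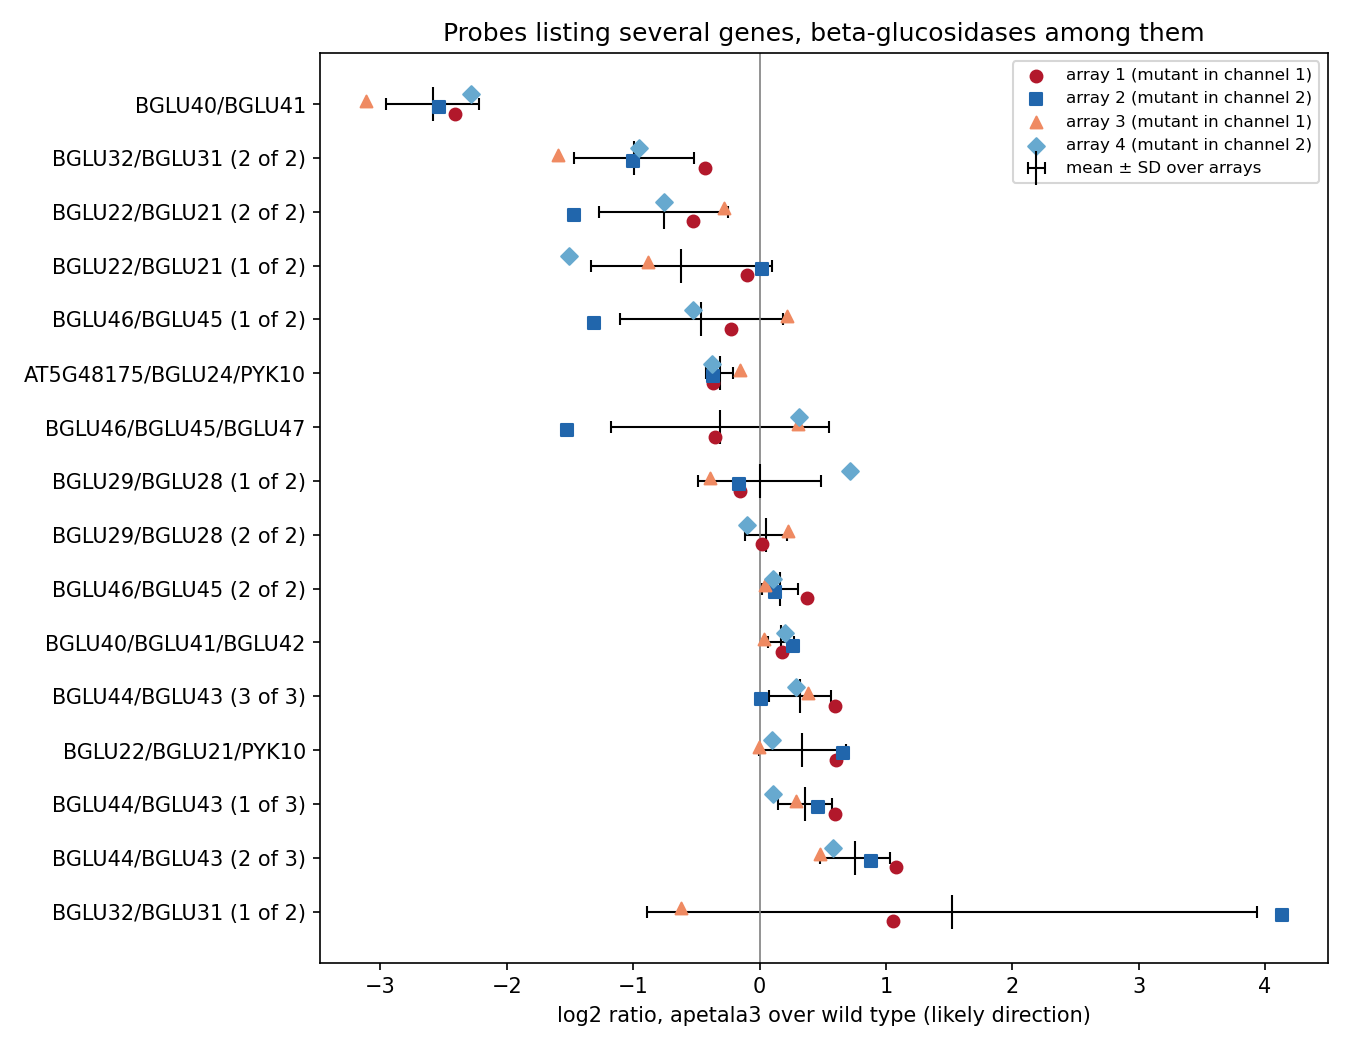
Log2 ratio of apetala3 over wild type (x axis) for each probe that lists several genes with beta-glucosidases among them (y axis), with 1 point per array and the mean ± SD. The BGLU40/BGLU41 probe lies between -3.11 and -2.28, apart from the BGLU40/BGLU41/BGLU42 probe between 0.032 and 0.27, and the first BGLU32/BGLU31 probe is spread from -0.62 to 4.13.

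ATA27 fell in apetala3 with a mean of -4.10 ± 0.61 (SE, n = 4 arrays, limma adjusted p = 0.0109), beside -4.40 for BGLU36. Array 1 was the lowest, at -6.53, and the other arrays lay between -3.75 and -2.90. Without array 1 the mean was -3.29 (limma adjusted p = 0.00766). The call was lost with the ordinary t statistic (adjusted p = 0.0972, without limma's moderation). ATA27 has 2 probes, and on array 1 a probe at the 100-fold limit, above 0, was left out of the average. The -6.53 there thus rests on the other probe, and the probes were opposite in sign. With values at the limit kept, the mean of ATA27 was -2.45 and did not pass the test (limma adjusted p = 0.0861).

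UGT enzymes transfer sugars onto small molecules, the step that beta-glucosidases undo. Of 58 genes with a UGT symbol, 18 were measured, of which 2 were higher, 1 was lower and 15 did not pass the test. These shares are near the 8.43% higher and 10.1% lower over all features. Their median was 0.22, beside 0.115 for all features. UGT73C1 had log2 ratios of 1.33, 1.57, 1.07 and 0.85 on arrays 1 to 4, all above 0 and with a mean of 1.20 ± 0.14 (SE, n = 4 arrays, limma adjusted p = 0.00507). The call was lost with the ordinary t statistic (adjusted p = 0.0612, no limma moderation). UGT85A5 was higher at 0.42, a call lost without array 1, 2 or 3 (means of 0.41, 0.40 and 0.41) and with arrays centred (0.32). UGT74D1, which can glucosylate auxins, was lower at -0.47, a call lost without any 1 of arrays 1 to 4 (means of -0.41, -0.46, -0.54 and -0.48).

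Of 17 loci matched by the list of monolignol and phenylpropanoid partners, 2 were measured and neither passed the test. The 17 count every locus that a symbol matched, 3 for CCR1 and 2 for FAH1. UGT84A1, which glucosylates hydroxycinnamates, had -2.50, -2.66, -5.04 and -0.29 on arrays 1 to 4. All were below 0 but far apart, and the mean of -2.62 ± 0.72 had a limma adjusted p of 0.0575. Without array 4 it was -3.40 (limma adjusted p = 0.0215), and without array 3 it was -1.82 (limma adjusted p = 0.0912). GT72B1 was at 0.24. Of 33 loci matched to the list of glucosinolate breakdown and the PYK10 complex, 1 was measured. It was the jacalin-type lectin JAL34, at 0.24 (limma adjusted p = 0.153). The myrosinase symbol TGG6 of that list matched no symbol or synonym in the gene table used. That failed match does not show TGG6 to be a gene apart from BGLU36. BGLU36, grouped with the myrosinases and lower at -4.40, is left out of the count of 1.

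Among other glycoside hydrolases, 7 of 47 genes were measured, with 2 lower, 0 higher and 5 not past the test, beside 10.1% lower and 8.43% higher over all features. GH9A4 was at -3.64 and GH9B11 at -2.96, both of the endoglucanase family 9 (limma adjusted p = 0.000893 and 0.00394). GH9B11 lost its call with the ordinary t statistic (adjusted p = 0.0681, no limma moderation). The median of the 7 was 0.29.

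**Figure D4:**
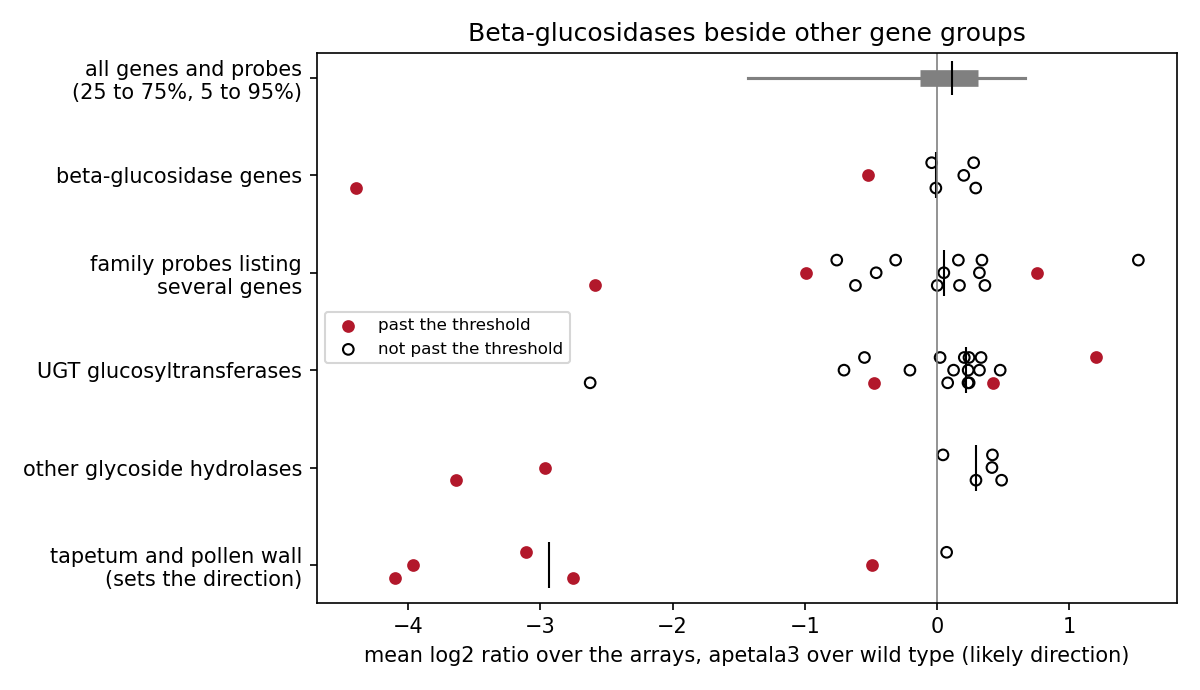
Mean log2 ratio of apetala3 over wild type (x axis) for the beta-glucosidase genes and other gene groups (y axis), with 1 point per gene or probe, filled where past the threshold, and a tick at each median; the grey bar shows the 25 to 75% range and the line the 5 to 95% range of all features. BGLU36 at -4.40 lies beside the lowest tapetum genes, which set the direction, and the median of the 7 beta-glucosidases is -0.0089.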

How the data were processed

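The authors deposited 1 log2 ratio between the channels per spot and array, processed and normalized as in an earlier publication, per the labels. For numerator, scanner, background correction and centring, the method is not given in the sources used here. Deposited array medians over gene probes were -0.11, 0.12, -0.099 and 0.075. Ratios of arrays 1 and 3 were multiplied by -1. Values within 1e-05 of the 100-fold limit were set to not measured, 268 to 701 gene probes an array, and 38 to 139 had no value. Signal levels are not in these values, so distance from background is unknown. Empty spots had turned medians of 0.76, 0.56, -0.27 and 0.84 on arrays 1 to 4. Their part in small ratios was not tested.

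The platform annotation gave 1 gene for 5784 of 26474 gene probes, several for 7497 and none for 13193. Of the 5784, 5756 matched the TAIR10.1 gene table by gene ID. Probes of 1 gene were averaged per array. Features on at least 3 arrays were tested with limma 3.58.1 (intercept only) in R 4.3.3, and intervals use its moderated standard error. The code was tested on simulated data. Named are all members, the family probes listing several genes, pathway list members past the threshold or otherwise the 2 largest, every measured tissue marker, and the 3 nearest patterns of each changed member. Members and lists were chosen with earlier results of these data known. A list symbol that matched several loci counts all of them, so totals of loci can include genes outside the named pathway or tissue. Alternatives left out each array, centred arrays, added a channel effect or array weights, kept limit values, required 4 arrays, used an ordinary t statistic, or tested each probe alone.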

Additional observations from a re-analysis of the deposited data

Results flagged for a closer look

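BGLU25 was flagged because its sign differed between the channel orders. It was above 0 on both arrays with the mutant in channel 1 and below 0 on both with it in channel 2. The difference between the orders was 0.28 and did not pass the test (limma adjusted p = 0.790). BGLU16 had a larger difference of 0.35 (limma adjusted p = 0.766) but was not flagged, as the flag rests on signs alone.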

How the results depend on the processing

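Each ratio sets both genotypes against each other on 1 array, so every test is already paired and no further block was fitted. BGLU36 kept its direction and its call under all alternatives run, with limma adjusted p up to 0.00899 and an adjusted p of 0.0409 with the ordinary t statistic. BGLU24 stayed below 0 but lost its call with a constant channel effect and with the ordinary t statistic (both -0.52) and without any 1 array (-0.60 to -0.45), so the members called, all lower, fell from 2 to 1 there. BGLU33, BGLU42 and BGLU47 kept their side of the threshold and their direction in all alternatives run. Means near 0 changed sign. BGLU16 was at 0.041 with array weights, 0.24 from its first probe, and -0.15 to 0.048 without 1 array. BGLU25 was at 0.047 with array weights and -0.061 to 0.083 without 1 array. The BGLU28 and BGLU29 probes were at -0.099 and -0.044 with centring, the probe at 0.0016 at -0.084 with array weights, and without 1 array they ranged from -0.24 to 0.13 and from -0.036 to 0.13. The BGLU45, BGLU46 and BGLU47 probe was at 0.089 without array 2. All features called numbered 1665 to 4693 without 1 array (287 to 2149 higher, 1378 to 2544 lower), over the same features, and 1265 with the ordinary t statistic (502 higher, 763 lower). Higher features numbered 1065 with centring, 1430 with a channel effect, 3751 with array weights and 1430 with limit values kept. The calls of SWEET8, SHT, SPL, TUA1, UGT85A5 and UGT74D1 were also lost with the ordinary t statistic. The cause of these shifts was not tested.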
